A study of Rattus norvegicus with 12 samples.

Results

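The NRF2 antioxidant genes described here are NFE2L2, KEAP1, GCLC, GCLM, NQO1, TXNRD1, SRXN1, HMOX1 and MT1A. They were taken by symbol from a liver expression table that lists 14692 genes, and all 9 were found. All 9 were above 0 in each of the 12 columns and passed the filter of a mean of at least 1 RPKM (reads scaled by transcript length and by the mapped reads of the library), as did 8459 genes in all. Because RPKM is scaled by transcript length, levels can be compared roughly between genes, less so where like genes may share reads.

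The livers came from adult male Sprague Dawley rats that underwent partial hepatectomy, the removal of most of the liver, 24 h after a first operation. Control rats had a sham biliary fistula. Rats of the BF and BA arms had a fistula that drains bile out of the body, and in one of these arms sodium taurocholate, a bile acid, was returned to the duodenum. Every rat carried a duodenal catheter with a saline infusion. Liver was taken at 0, 4, 12 and 24 h, and each of the 12 arm and time combinations was deposited as 1 column that combines a run on RNA of 1 rat with a run on pooled RNA of 3 rats, so no spread between rats can be computed. BF and BA are the codes in the sample titles. The titles, read with the names the study uses, put the infusion in BA, whereas the sample descriptions put it in BF, so neither code is equated here with drainage alone. CYP7A1, the rate-limiting enzyme of bile acid synthesis, is known to be repressed by bile acids that return from the gut. It was at 60.00, 4.59, 8.53 and 57.30 RPKM in Control at 0, 4, 12 and 24 h, at 54.92, 1.81, 3.17 and 68.83 RPKM in BA and at 386.93, 13.79, 135.89 and 334.36 RPKM in BF. It was highest in BF at each time, which is the direction of the titles' reading and not of the descriptions', and no column was reassigned on it.

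Several columns stood apart. The BA column at 4 h had ALB (serum albumin) at 303637.48 RPKM, where the other 11 columns lay between 41049.05 and 99927.86 RPKM, and its 10 most abundant genes took 53.25% of the column's sum. In the BF column at 12 h the summed level of 14 pancreatic acinar markers, of which 13 were listed, was 153.42 RPKM, against 5.37 to 23.57 RPKM elsewhere. In the Control column at 0 h a list of 5 neutrophil markers summed to 3.11 RPKM, against 22.38 and 22.79 RPKM in BA and BF at 0 h, and MPO and ELANE were under 0.2 RPKM in all columns. The summed hepatocyte markers (4 of 5 listed) ranged from 70588.56 to 336272.13 RPKM, macrophage markers (10 of 10) from 352.63 to 577.25 RPKM, erythroid markers (3 of 5) from 165.92 to 493.46 RPKM, cholangiocyte markers (3 of 5) from 4.95 to 13.54 RPKM and stellate and endothelial markers (6 of 7) from 52.51 to 97.79 RPKM. In whole liver, fewer cells of a type and less RNA per cell cannot be told apart. The number of reads behind each column is not known from RPKM.

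NRF2, encoded by NFE2L2, is a transcription factor that turns on genes for glutathione synthesis, quinone reduction and thiol repair. KEAP1 holds NRF2 in the cytoplasm and hands it to a ubiquitin ligase, and oxidants or electrophiles that modify KEAP1 let NRF2 reach the nucleus, where with small MAF partners it binds antioxidant response elements. Because this control acts on the protein, the NFE2L2 transcript does not measure NRF2 activity. HMOX1 and the metallothioneins also answer to other factors: HMOX1 is repressed by BACH1, and metallothionein genes are switched on by the zinc sensor MTF1 and by glucocorticoid and cytokine signals. The liver makes and exports much of the body's glutathione, and bile is one of its outlets.

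To show the regulatory letters near these genes, 250 bases before the transcription start were read from RefSeq (rat build GRCr8), in which 8 of the 9 genes have an entry. HMOX1 has none. Both strands were searched for the core of the antioxidant response element, TGACNNNGC, which 10.08% of 33469 rat promoters of this length held, for the AP-1 motif TGACTCA, held by 4.05%, and for the core of the metal response element, TGCACNC or TGCGCNC, held by 20.57%. An antioxidant core can overlap an AP-1 match, as it does in MT2A. A match describes letters and is not a shown binding site. The metallothionein pair is printed because MT1A and its neighbour MT2A had like patterns, and capitals mark the metal response core. It occurs 6 times before MT1A (chr19:10832976-10833225, minus strand, RefSeq symbol Mt1) and 4 times before MT2A (chr19:10838709-10838958, minus strand), where 89 of the 33469 promoters (0.27%) held 4 or more. Each window also holds 1 antioxidant core, not marked.
MT1A: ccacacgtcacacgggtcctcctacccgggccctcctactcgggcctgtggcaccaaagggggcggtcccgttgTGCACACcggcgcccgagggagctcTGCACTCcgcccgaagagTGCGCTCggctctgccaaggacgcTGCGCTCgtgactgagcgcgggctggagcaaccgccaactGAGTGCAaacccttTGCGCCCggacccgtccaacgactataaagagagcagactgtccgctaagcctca
MT2A: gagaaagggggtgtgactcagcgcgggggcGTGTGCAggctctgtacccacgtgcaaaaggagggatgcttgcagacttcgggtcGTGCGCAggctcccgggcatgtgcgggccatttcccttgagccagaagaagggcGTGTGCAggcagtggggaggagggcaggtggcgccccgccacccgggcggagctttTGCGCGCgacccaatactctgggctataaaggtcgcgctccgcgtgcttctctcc

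The next promoters are printed because GCLM fell after hepatectomy while TXNRD1 and SRXN1 were higher at 24 h, and because each holds a match. Capitals mark the antioxidant core in GCLM (chr2:213031885-213032134, plus strand) and in the downstream window of the pair of TXNRD1 starts (chr7:22755905-22756154, minus strand), and the AP-1 motif in SRXN1 (chr3:161064562-161064811, plus strand). All 3 matches read on the opposite strand, so the capitals are the reverse complement of the motif. GCLM also holds 2 metal response cores, which are not marked.
GCLM: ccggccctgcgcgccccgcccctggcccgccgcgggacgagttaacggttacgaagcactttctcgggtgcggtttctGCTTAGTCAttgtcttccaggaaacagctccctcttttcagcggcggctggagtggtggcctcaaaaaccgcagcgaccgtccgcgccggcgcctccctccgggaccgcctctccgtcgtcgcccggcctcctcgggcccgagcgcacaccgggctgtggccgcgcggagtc
TXNRD1: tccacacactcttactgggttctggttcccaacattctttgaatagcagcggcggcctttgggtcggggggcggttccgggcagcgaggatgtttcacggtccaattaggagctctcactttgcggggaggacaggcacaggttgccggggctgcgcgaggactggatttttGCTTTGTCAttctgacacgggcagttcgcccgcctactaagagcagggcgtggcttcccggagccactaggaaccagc
SRXN1: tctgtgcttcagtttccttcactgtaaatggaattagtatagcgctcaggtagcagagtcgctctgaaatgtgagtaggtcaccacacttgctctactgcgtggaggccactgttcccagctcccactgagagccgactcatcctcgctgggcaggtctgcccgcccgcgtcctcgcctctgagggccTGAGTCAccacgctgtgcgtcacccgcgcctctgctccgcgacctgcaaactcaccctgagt
The same windows of NFE2L2, KEAP1, NQO1, GCLC and the other TXNRD1 start held no antioxidant core and no AP-1 match. Sequence beyond these 250 bases was not searched, so a window without a match does not show that the gene lacks an element.

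Changes were tested with 1 additive limma fit over the 12 columns on log2(RPKM + 1), with arm and time as terms. Its error is the departure of single columns from the sum of an arm effect and a time effect, on 6 residual degrees of freedom, so the p-values measure spread among deposited columns, not among rats. A gene is called where the Benjamini-Hochberg adjusted p over all 8459 genes was under 0.05. Differences between 2 single columns are given as values with no test. Every arm had a hepatectomy. A difference from 0 h therefore cannot be told apart from other changes over the same hours, such as hour of day or recovery from the first operation.

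**Figure D1:**
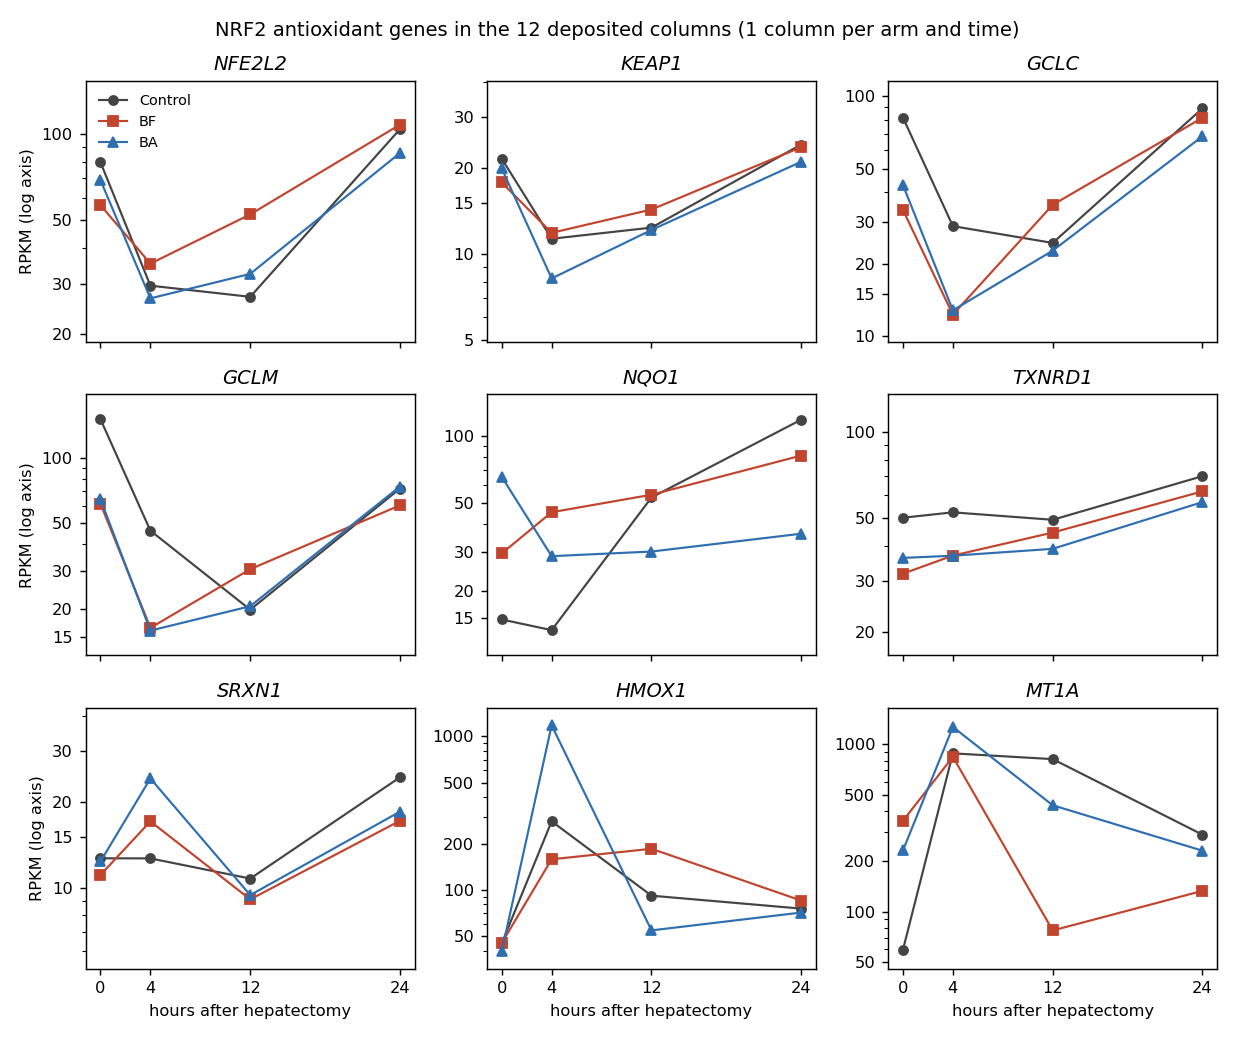
RPKM (log axis) of the 9 NRF2 antioxidant genes against hours after partial hepatectomy, with 1 point for each deposited column and lines joining the 4 columns of Control (circles), BF (squares) and BA (triangles). NFE2L2, KEAP1, GCLC and GCLM have their low points at 4 or 12 h in every arm, HMOX1 peaks at 1182.18 RPKM in the BA column at 4 h, and MT1A in BF is at 77.35 RPKM at 12 h while Control is at 817.26 RPKM.

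The regulators came first. NFE2L2 was at 79.72, 29.51, 26.97 and 104.11 RPKM in Control at 0, 4, 12 and 24 h. In BF it was at 56.43, 35.24, 52.39 and 107.97 RPKM, and in BA at 69.00, 26.64, 32.45 and 85.93 RPKM. In RPKM as deposited, all 4 h columns lay below all 0 h columns, and all 24 h columns lay above them. The share of all genes whose time groups separate like this was not counted, here or for the genes below. The transcript fell by 1.14 (SE 0.22, 3 columns a time) on the log2 scale at 4 h with an adjusted p of 0.0033, and fell by 0.90 (SE 0.22) at 12 h with an adjusted p of 0.014. At 12 h the BF column, at 52.39 RPKM, was 1.943 times the Control column. The 12 h call was lost without the Control column at 0 h (adjusted p = 0.067), without that at 12 h (0.065) or without the BA column at 0 h (0.054). At 24 h the difference from 0 h was 0.54 (SE 0.22) with an adjusted p of 0.079. It depended on scaling. Rescaled on the median gene it was 0.21 (adjusted p = 0.45), with 0.042 in the Control columns. Rescaled without the 10 most abundant genes it was 0.61 (adjusted p = 0.045).

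KEAP1, the adaptor that marks NRF2 for destruction, moved with it at a lower level. It was at 21.53, 11.29, 12.35 and 24.12 RPKM in Control. The BF columns held 17.77, 11.84, 14.29 and 23.61 RPKM and the BA columns 19.90, 8.20, 12.12 and 21.00 RPKM. The groups at 4 and 12 h did not overlap the group at 0 h. KEAP1 fell by 0.87 (SE 0.13) at 4 h with an adjusted p of 0.0010 and fell by 0.57 (SE 0.13) at 12 h with an adjusted p of 0.0094. The 12 h call was lost when columns were rescaled without their 10 most abundant genes (adjusted p = 0.058) and without the Control column at 12 h (0.052). In no column pair of the same time did BF or BA reach 2-fold of Control for NFE2L2 or KEAP1. NFE2L2 in BF at 12 h came near it, at 1.943 times Control, where 3.52% of all genes reached 2-fold.

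Glutamate-cysteine ligase makes the first and limiting bond of glutathione, with GCLC as its catalytic and GCLM as its modifier subunit. GCLC was at 81.60, 28.78, 24.49 and 89.22 RPKM in Control. BF showed 33.62, 12.30, 35.33 and 81.52 RPKM and BA 42.69, 12.82, 22.74 and 68.23 RPKM. Both fistula arms were below Control at 0 and 4 h, BF was above it at 12 h, and the 24 h columns were close. GCLC fell by 1.50 (SE 0.29) at 4 h with an adjusted p of 0.0036, a drop of 2.733 to 3.330 times in RPKM within the arms. At 12 h its difference was -0.84 with an adjusted p of 0.056, and without the BF column at 12 h it was -1.17 with an adjusted p of 0.018. Without the Control column at 0 h it was -0.61 with an adjusted p of 0.22. Over all fits that left out 1 column or 1 time it ran from -1.17 to -0.49 (adjusted p of 0.018 to 0.24).

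GCLM, the modifier subunit, was at 150.10, 46.09, 19.95 and 72.02 RPKM in Control. Its BF levels were 61.32, 16.46, 30.66 and 60.28 RPKM and its BA levels 64.28, 15.99, 20.70 and 73.59 RPKM. The Control column at 0 h was the highest of the 12, and the lowest were the fistula columns at 4 h. GCLM fell by 1.82 (SE 0.36) at 4 h with an adjusted p of 0.0036 and fell by 1.81 (SE 0.36) at 12 h with an adjusted p of 0.0061. At 24 h the difference from 0 h was -0.29 with an adjusted p of 0.54. The 24 h columns of GCLC were thus at or above 0 h in every arm, whereas GCLM in Control at 24 h was 0.480 times its 0 h level. The ratio of GCLM to GCLC in RPKM was 1.839, 1.601, 0.815 and 0.807 in Control, 1.824, 1.338, 0.868 and 0.739 in BF and 1.506, 1.247, 0.910 and 1.079 in BA. All 0 and 4 h ratios lay between 1.247 and 1.839, and all 12 and 24 h ratios between 0.739 and 1.079. This ratio is given as a description with no test.

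NQO1 reduces quinones with 2 electrons and is a standard readout of NRF2. It was at 14.80, 13.24, 52.70 and 118.51 RPKM in Control, at 29.43, 45.20, 54.24 and 81.56 RPKM in BF and at 65.36, 28.61, 30.02 and 36.14 RPKM in BA. Control went from the lowest arm at 0 h to the highest at 24 h, an 8.007-fold difference, BF lay 2.771-fold higher at 24 h than at 0 h, and BA lay at 0.553 times its 0 h level. None of the average changes passed the test: the differences from 0 h were -0.24, 0.51 and 1.17 at 4, 12 and 24 h, with adjusted p of 0.77, 0.55 and 0.15. Without the BA column at 0 h the 24 h difference was 1.93 with an adjusted p of 0.022. Without the Control column at 0 h it was 0.66 with an adjusted p of 0.47. Over all fits that left out 1 column or 1 time it ran from 0.53 to 1.93 (adjusted p of 0.022 to 0.54). NQO1 had a residual SD of 0.74 on the log2 scale, against 0.14 for TXNRD1, so a single average over arms describes it poorly.

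TXNRD1 (thioredoxin reductase) recharges thioredoxin with NADPH and varied least of the 9 genes, 2.19-fold from its lowest to its highest column. It was at 50.13, 52.35, 49.30 and 70.07 RPKM in Control. The BF columns held 31.94, 36.95, 44.48 and 62.00 RPKM and the BA columns 36.27, 36.91, 39.02 and 56.86 RPKM. At each time both fistula columns lay below Control, and in each arm the 24 h column was the highest. TXNRD1 rose by 0.68 (SE 0.11) at 24 h with an adjusted p of 0.0027, or by 0.35 with an adjusted p of 0.034 when columns were rescaled on the median gene. At 12 h the difference of 0.18 was not called (adjusted p = 0.25), but with columns rescaled on the median gene it was 0.32 with an adjusted p of 0.042, and 0.42 with an adjusted p of 0.016 when rescaled without the 10 most abundant genes.

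SRXN1 (sulfiredoxin) repairs over-oxidised peroxiredoxins. It was at 12.67, 12.66, 10.76 and 24.33 RPKM in Control. Levels in BF were 11.08, 17.06, 9.10 and 17.14 RPKM, and those in BA were 12.35, 24.10, 9.42 and 18.45 RPKM. The fistula columns were highest at 4 and 24 h, and Control was highest at 24 h only. SRXN1 was higher at 24 h by 0.67 (SE 0.20) with an adjusted p of 0.029. That call was lost when columns were rescaled on the median gene (0.36, adjusted p = 0.25) and without any single one of 5 columns, namely Control, BF or BA at 0 h and Control or BF at 24 h. At 4 h the difference of 0.50 had an adjusted p of 0.071, and either rescaling brought it past the threshold (adjusted p of 0.044 and 0.045).

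HMOX1 (heme oxygenase 1) breaks heme into biliverdin, iron and carbon monoxide. It was at 44.56, 279.19, 91.30 and 75.16 RPKM in Control. BF showed 44.75, 157.82, 184.77 and 84.80 RPKM, and BA 39.54, 1182.18, 54.17 and 70.86 RPKM. The 3 arms started alike and all 4 h columns were above all 0 h columns, by 6.265-fold in Control, 3.527-fold in BF and 29.898-fold in BA. HMOX1 rose by 3.09 (SE 0.66) at 4 h with an adjusted p of 0.0053. Without the BA column at 4 h, the column with the high albumin reading, the rise was 2.09 with an adjusted p of 0.0068. At 12 h the difference from 0 h was 1.16 and was not called (adjusted p = 0.21). Without that same BA column it was called, at 1.16 with an adjusted p of 0.032. Over all fits that left out 1 column or 1 time the 12 h difference ran from 0.53 to 1.82 (adjusted p of 0.020 to 0.59). At 4 h BA was 4.234 times Control and BF was 0.565 times Control. At 12 h the order had turned: BF was 2.024 times Control and BA 0.593 times Control. By 24 h the arms lay between 70.86 and 84.80 RPKM. The macrophage markers, from cells that express HMOX1 in resting liver, summed to 448.83 to 523.88 RPKM at 0 h and 451.09 to 577.25 RPKM at 4 h. The sum mixes directions. CD14 went from 29.43 to 139.34 RPKM in BA, 43.71 to 80.95 RPKM in Control and 36.00 to 38.68 RPKM in BF. Of the 10 markers only EMR1 was called at 4 h, lower by 0.54 (adjusted p = 0.0065), where 45.3% of all genes were called. The part of these markers in the HMOX1 result was not tested.

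MT1A is a metallothionein, a small cysteine-rich protein that binds zinc and copper and scavenges oxidants. It was at 59.34, 884.67, 817.26 and 288.96 RPKM in Control. In BF it was at 350.09, 843.03, 77.35 and 133.39 RPKM, and in BA at 232.77, 1272.29, 433.05 and 231.76 RPKM. The Control column at 0 h was the lowest of all, and the 4 h columns were above the 0 h columns by 14.908-fold in Control, 2.408-fold in BF and 5.466-fold in BA. MT1A rose by 2.53 (SE 0.82) at 4 h with an adjusted p of 0.031. This call depended on single columns. Without the Control column at 0 h the difference was 1.49 with an adjusted p of 0.12, it was also lost without Control at 4 h, BA at 0 h, BA at 4 h or BF at 4 h (adjusted p of 0.057 to 0.089), and with no filter on low genes the adjusted p was 0.058.

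Between arms MT1A had the widest gap of the 9 genes within a time, at 12 h. At 0 h BF was 5.900 times and BA 3.923 times Control. At 4 h the columns lay within 1.509-fold of each other. At 12 h Control and BA were still at 817.26 and 433.05 RPKM, while BF, at 77.35 RPKM, was 0.095 times Control and 0.179 times BA. That column is also the one with acinar markers, whose part in the value was not tested. MT2A, the neighbouring metallothionein printed above, was at 38.00, 1270.72, 1663.10 and 325.22 RPKM in Control, at 313.87, 1171.28, 205.92 and 126.56 RPKM in BF and at 238.02, 1668.33, 978.80 and 399.32 RPKM in BA. It was likewise lowest in Control at 0 h and low in BF at 12 h. MT2A rose by 3.24 at 4 h with an adjusted p of 0.013. Reads of MT1A and MT2A may be shared with each other or with metallothionein pseudogenes, since how multiply mapped reads were counted is not given in the sources used here, so their separate levels are uncertain.

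Across the 9 genes, 6 were called at 4 h, which 45.3% of all tested genes also were. Of these, 4 fell (NFE2L2, KEAP1, GCLC, GCLM), against 32.4% of all genes, and 2 rose (HMOX1, MT1A), against 12.9%. At 12 h 3 fell (NFE2L2, KEAP1, GCLM), against 22.5% of all genes, and none was called higher. At 24 h 2 were called higher (TXNRD1, SRXN1), against 30.6%, and none lower. The median of the 9 differences was -0.24, -0.28 and 0.67 at 4, 12 and 24 h, where the median over all genes was -0.20, -0.12 and 0.21. The 4 h, 12 h and 24 h counts are not far from these shares and are not read as a result about the set. All-gene medians away from 0 depend on scaling. With columns rescaled on the median gene the members had 3 higher and 4 lower at 4 h, 1 higher and 3 lower at 12 h and 1 higher at 24 h, and over all genes the share of calls that were higher went from 28.4% to 41.9% at 4 h, from 28.7% to 49.1% at 12 h and from 84.7% to 37.6% at 24 h.

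**Figure D2:**
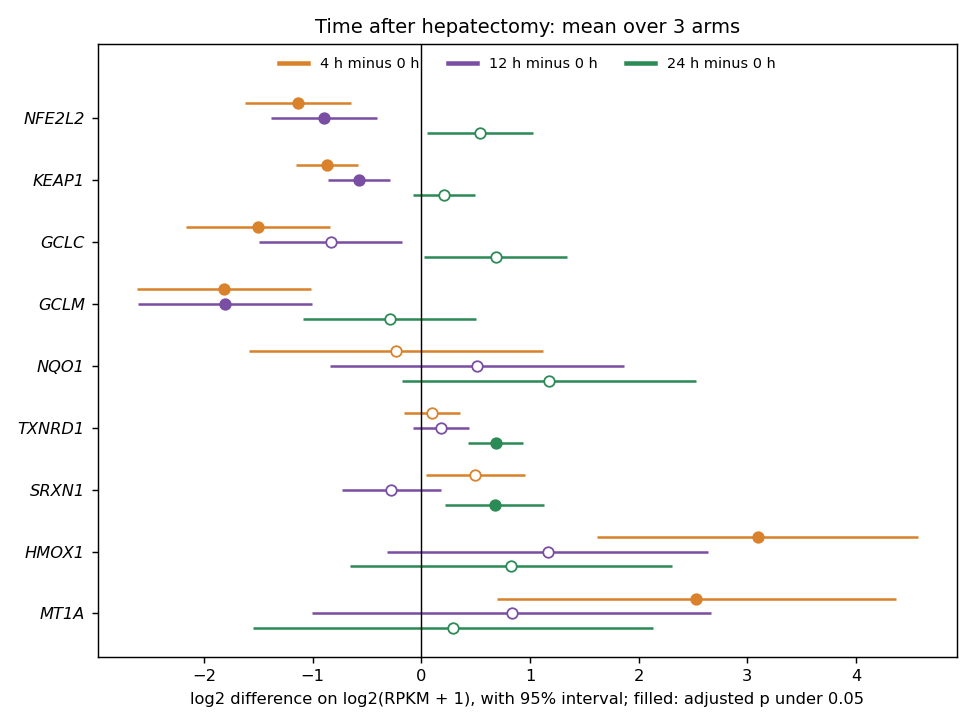
Difference from 0 h on log2(RPKM + 1), averaged over the 3 arms, at 4, 12 and 24 h for each of the 9 genes, with the 95% interval from limma as a horizontal line. Filled points had an adjusted p under 0.05, which at 4 h were 4 genes to the left of 0 and 2 (HMOX1 and MT1A) to the right.

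The fistula arms were compared with Control over the 4 times, which both share as reference. None of the 9 genes was called by limma in BF minus Control, where 0.804% of all genes were, in BA minus Control (0.0709%) or in BF minus BA (0.0118%). At an unadjusted p under 0.05 there was 1 gene in BF minus Control (TXNRD1), there were 2 in BA minus Control (TXNRD1 and GCLC), and there was none in BF minus BA, where 21.89%, 22.69% and 7.81% of all genes passed that limit. TXNRD1 was lower than Control in 4 of 4 times in both arms, by 0.36 (SE 0.10, adjusted p = 0.11) in BF and 0.39 (SE 0.10, adjusted p = 0.10) in BA. Its intervals ran from -0.58 to -0.14 and from -0.62 to -0.17. The median over all genes was -0.113 in BF minus Control and -0.135 in BA minus Control. Rescaled on the median gene, TXNRD1 was lower by 0.23 (adjusted p = 0.27) in BF and 0.25 (adjusted p = 0.29) in BA. How many of all genes were lower at all 4 times was not counted. GCLC had differences of -0.51 (adjusted p = 0.27) in BF and -0.63 (adjusted p = 0.19) in BA, and GCLM of -0.59 (adjusted p = 0.29) and -0.65 (adjusted p = 0.24). With 4 columns an arm the intervals were wide for genes whose arms cross: BF minus Control was 0.54 for NQO1 with an interval of -0.63 to 1.71, and -0.51 for MT1A with an interval of -2.10 to 1.09. BF minus BA was -0.82 for MT1A (interval -2.41 to 0.77) and 0.28 for NFE2L2 (-0.15 to 0.70).

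**Figure D3:**
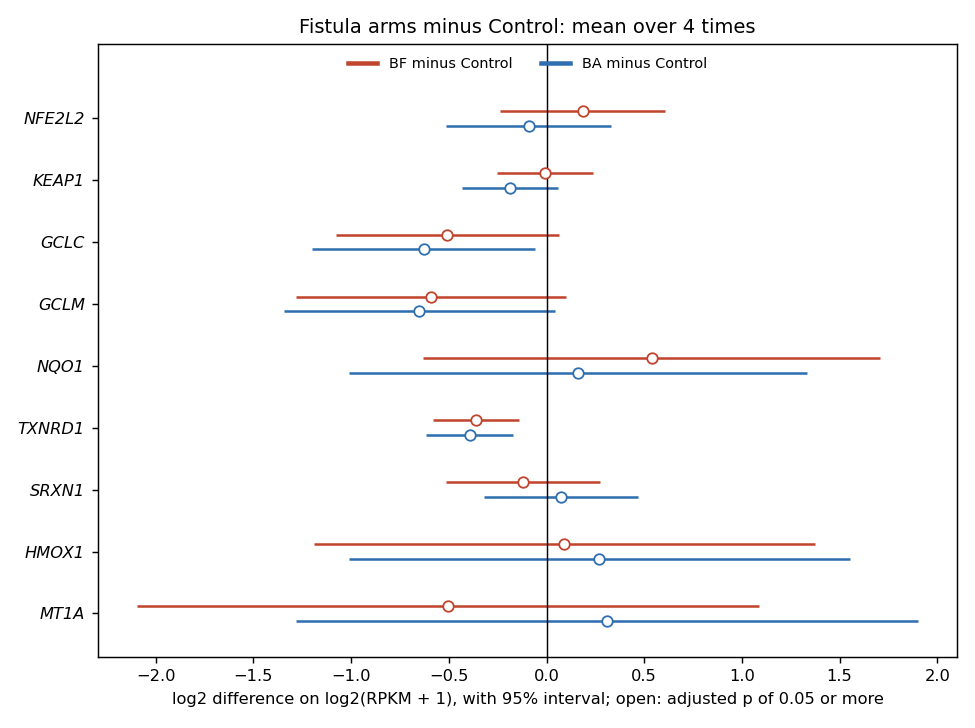
BF minus Control and BA minus Control on log2(RPKM + 1), averaged over the 4 times, for each of the 9 genes, with the 95% interval from limma as a horizontal line. All points are open because none had an adjusted p under 0.05, and both TXNRD1 intervals and the GCLC interval for BA lie wholly to the left of 0.

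Taken time by time, the gap between arms lay in a few genes. At 0 h, 24 h after the first operation and before any regrowth, MT1A was at least 2-fold higher and GCLC and GCLM at least 2-fold lower in BF than in Control on log2(RPKM + 1), a size reached by 3.89% of all genes. In BA it was NQO1 and MT1A that were higher and GCLM that was lower, against 4.02%. GCLM, for example, was at 150.10 RPKM in Control and at 61.32 and 64.28 RPKM in the fistula arms. At 4 h NQO1 was higher and GCLC and GCLM lower in BF (4.35% of all genes), and NQO1 and HMOX1 higher and GCLC and GCLM lower in BA (7.28%). At 12 h HMOX1 was higher and MT1A lower in BF (3.52%), none reached 2-fold in BA (1.71%), and BF against BA had the same pair of genes (1.92%). At 24 h MT1A alone was lower in BF (2.08%) and NQO1 alone in BA (2.05%). GCLC and GCLM were thus low in both fistula arms at 0 and 4 h and within 1.31-fold of Control at 24 h. These counts rest on 1 column a side and carry no test. Some also depend on scaling, for which the shares of all genes were not recounted. Rescaled on the median gene, NQO1 in BF at 0 h (1.153) and SRXN1 in BA at 4 h (1.116) also passed 2-fold. GCLC in BA at 4 h (-0.88) and MT1A in BF at 24 h (-0.963) no longer did.

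**Figure D4:**
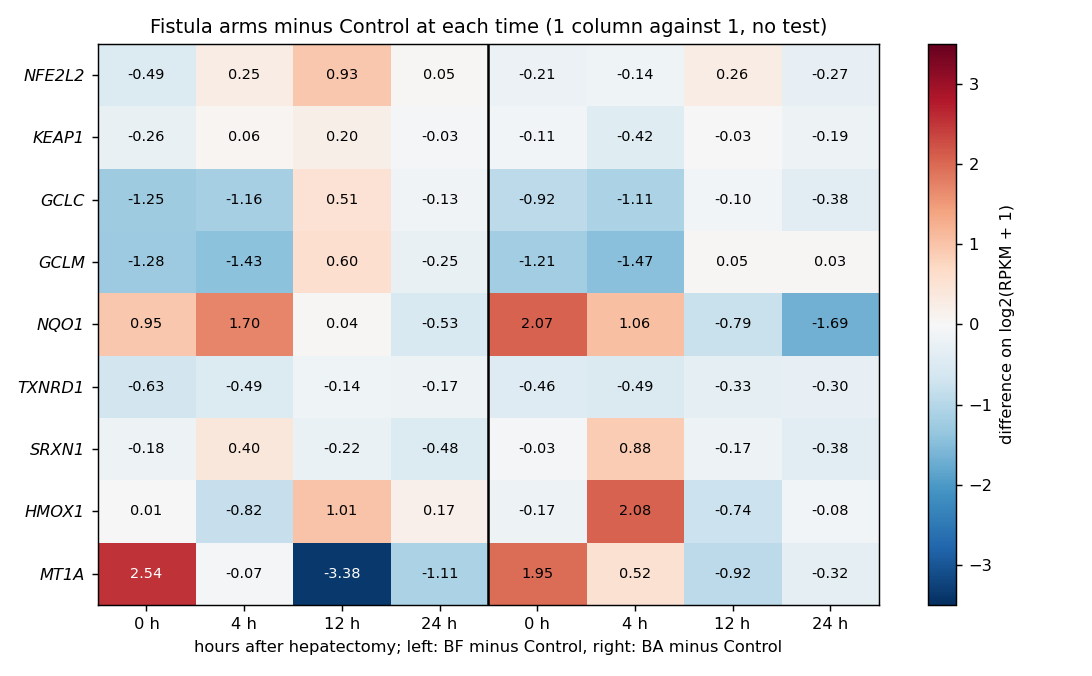
Difference of each fistula column from the Control column of the same time on log2(RPKM + 1), with BF on the left and BA on the right (1 column against 1, no test). GCLC and GCLM are blue (lower) at 0 and 4 h and near white at 24 h, NQO1 turns from red to blue between 0 and 24 h, and MT1A in BF goes from 2.54 at 0 h to -3.38 at 12 h.

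The early response was also read within each arm. From 0 to 4 h in Control 2 genes (HMOX1, MT1A) were at least 2-fold higher and 3 (NFE2L2, GCLC, GCLM) at least 2-fold lower, where 9.2% of all genes moved that far. In BF it was the same 2 higher and GCLC and GCLM lower, against 12% of all genes. In BA HMOX1 and MT1A were higher and 5 genes lower (NFE2L2, KEAP1, GCLC, GCLM, NQO1), against 17.8%. The BA list depends on scaling, since its 4 h column is the one with the high albumin reading. Rescaled on the median gene, KEAP1 (-0.941) and NQO1 (-0.902) were under 2-fold in BA and SRXN1 (1.173) was over it. HMOX1 and MT1A were on the high side and GCLC and GCLM on the low side in all 3 arms.

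The wider antioxidant system was read from 9 lists of 77 symbols, of which 66 were listed and 63 tested. At 4 h 6 of the 63 were called higher and 21 lower, at 12 h 5 higher and 24 lower, and at 24 h 16 higher and 6 lower. Of all genes, 12.9% were called higher and 32.4% lower at 4 h, 9.03% and 22.5% at 12 h, and 30.6% and 5.54% at 24 h. The counts at 4 h and the higher counts at 12 and 24 h were therefore near or below those shares. The medians were -0.28, -0.25 and 0.12, against -0.20, -0.12 and 0.21 for all genes. Rescaled on the median gene, the counts became 7 higher and 15 lower at 4 h, 8 and 19 at 12 h, and 3 and 11 at 24 h, so the direction at 24 h turned with the scaling, as it did over all genes (874 higher and 1448 lower). Without the BA column at 4 h the 4 h counts were 6 higher and 12 lower, and without the BF column at 12 h the 12 h counts were 2 higher and 19 lower. Without the Control column at 0 h they were 2 higher and 14 lower at 12 h and 9 higher and 2 lower at 24 h.

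Among 9 tested partners and regulators of NRF2, 3 were higher and 4 lower at 4 h, against 12.9% and 32.4% of all genes. BACH1, the repressor of HMOX1, was at 13.77, 67.83, 15.01 and 12.13 RPKM in Control, at 14.78, 19.08, 11.57 and 11.18 RPKM in BF and at 13.06, 47.95, 8.35 and 14.47 RPKM in BA. The Control and BA columns at 4 h stood far above the rest and the BF column less so. BACH1 rose by 1.46 at 4 h (adjusted p = 0.0076), and the small MAF proteins MAFF and MAFK, which pair with NRF2 or with BACH1, rose by 2.12 (adjusted p = 0.0020) and 0.86 (adjusted p = 0.0041). The other small MAF on the list, MAFG, went the opposite way and fell by 0.51 at 4 h (adjusted p = 0.030, named there after its values were seen) and by 0.63 at 12 h (adjusted p = 0.020). SQSTM1, the autophagy receptor that sequesters KEAP1, fell by 0.80 at 4 h (adjusted p = 0.0019) and by 0.74 at 12 h (adjusted p = 0.0043).

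In the glutathione list 2 of 6 genes were lower at 4 h (GSR and OPLAH), against 32.4% of all genes. At 24 h 3 of 6 were higher, against 30.6%. GSR, which reduces oxidised glutathione, fell by 0.75 at 4 h (adjusted p = 0.0047) and rose by 0.78 at 24 h (adjusted p = 0.0055). GSS, the second enzyme of glutathione synthesis, rose by 0.99 at 24 h (adjusted p = 0.0024), and the peroxidase GPX2 rose by 2.05 (adjusted p = 0.0028). GPX2 was nonetheless a low transcript, at 0.90 to 2.05 RPKM at 0 h and 8.54 to 10.55 RPKM at 24 h. Of 11 glutathione transferases, which join glutathione to electrophiles, 3 were lower at 4 h, 8 at 12 h and 2 at 24 h, and none was higher. The 4 h count was below the share of all genes called lower (32.4%), and the 12 h count was above it (22.5%). At 24 h 5.54% of all genes were called lower. GSTA4 fell by 1.36 at 12 h (adjusted p = 0.00024) and GSTA2 by 2.57 (adjusted p = 0.0048).

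GSTM2 was the only gene of the wider lists called between arms. It was at 825.29, 654.54, 234.54 and 353.38 RPKM in Control, at 241.50, 150.96, 69.78 and 142.03 RPKM in BF and at 177.85, 178.98, 142.02 and 143.44 RPKM in BA. All BA columns, and all BF columns except that at 0 h, lay below all Control columns. The share of all genes whose arms separate like this was not counted. BF minus Control was -1.73 with an adjusted p of 0.023. That call was lost without the BF column at 12 h (adjusted p = 0.062) or the Control column at 0 h (0.099). BA minus Control was -1.52 with an adjusted p of 0.074 and was not called. Mu-class transferases are close paralogs, so reads may be shared among them.

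Thioredoxins and peroxiredoxins, the partners of TXNRD1 and SRXN1, showed no call at 4 h, where 9 were tested and 45.3% of all genes were called. At 24 h 5 were higher and 1 lower, against 30.6% and 5.54% of all genes. PRDX2 was higher by 0.48 (adjusted p = 0.0084), PRDX3 by 0.46 (adjusted p = 0.019) and TXN2 by 0.36 (adjusted p = 0.033), all 3 of which lost their call when rescaled on the median gene. PRDX3 and TXN2 also lost it without the Control column at 0 h (adjusted p of 0.054 and 0.13). TXNIP, which inhibits thioredoxin, fell by 0.78 at 24 h (adjusted p = 0.0040). Of 5 genes that supply NADPH, IDH1 fell by 1.24 at 4 h (adjusted p = 0.00055) and TALDO1 was higher by 0.59 at 24 h (adjusted p = 0.0049), a call lost when rescaled on the median gene (0.26).

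SOD2, the mitochondrial superoxide dismutase, went the opposite way to catalase. SOD2 was at 79.00, 235.88, 570.20 and 136.50 RPKM in Control, at 66.92, 172.04, 367.61 and 87.14 RPKM in BF and at 103.86, 445.14, 480.91 and 176.12 RPKM in BA. It peaked at 12 h in every arm and rose by 1.67 at 4 h (adjusted p = 0.00052) and by 2.49 at 12 h (adjusted p = 0.00015). CAT, which destroys hydrogen peroxide, fell by 2.18 at 12 h (adjusted p = 0.00098).

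The iron and heme list holds genes of heme synthesis, binding and breakdown and the ferritin chains. Of its 7 genes 5 were lower at 4 h, where 32.4% of all genes were, and none was higher. BLVRB, a biliverdin reductase, fell by 0.87 at 4 h (adjusted p = 0.0010), and HMOX2, the constitutive heme oxygenase, fell by 0.55 (adjusted p = 0.0021). FTL, the ferritin light chain, fell by 0.46 at 4 h (adjusted p = 0.012), or by 0.38 without the Control column at 0 h (adjusted p = 0.060). Of 8 detoxification genes 3 were lower at 4 h and 3 at 12 h, against 32.4% and 22.5% of all genes. At 24 h 1 was higher and none lower, against 30.6% and 5.54% of all genes. That gene, PIR, was higher by 1.44 at 24 h (adjusted p = 0.035) and by 1.29, not called, at 12 h (adjusted p = 0.057). OSGIN1, an oxidative stress target of NRF2, was at 128.41, 15.07, 18.43 and 78.98 RPKM in Control, at 41.99, 9.18, 40.10 and 80.86 RPKM in BF and at 65.59, 12.31, 23.74 and 72.05 RPKM in BA. Like GCLM it was highest in Control at 0 h and lowest in the fistula arms at 4 h. It fell by 2.47 at 4 h (adjusted p = 0.0013). EPHX1, microsomal epoxide hydrolase, fell by 2.24 at 12 h (adjusted p = 0.0012).

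Of 4 other metal-handling genes tested beside MT1A, 2 were higher and 1 lower at 4 h, against 12.9% and 32.4% of all genes. Besides MT2A, the zinc importer SLC39A14 rose by 1.34 (adjusted p = 0.0021). SLC30A1, a zinc exporter that MTF1 also controls, fell by 1.25 (adjusted p = 0.0053).

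**Figure D5:**
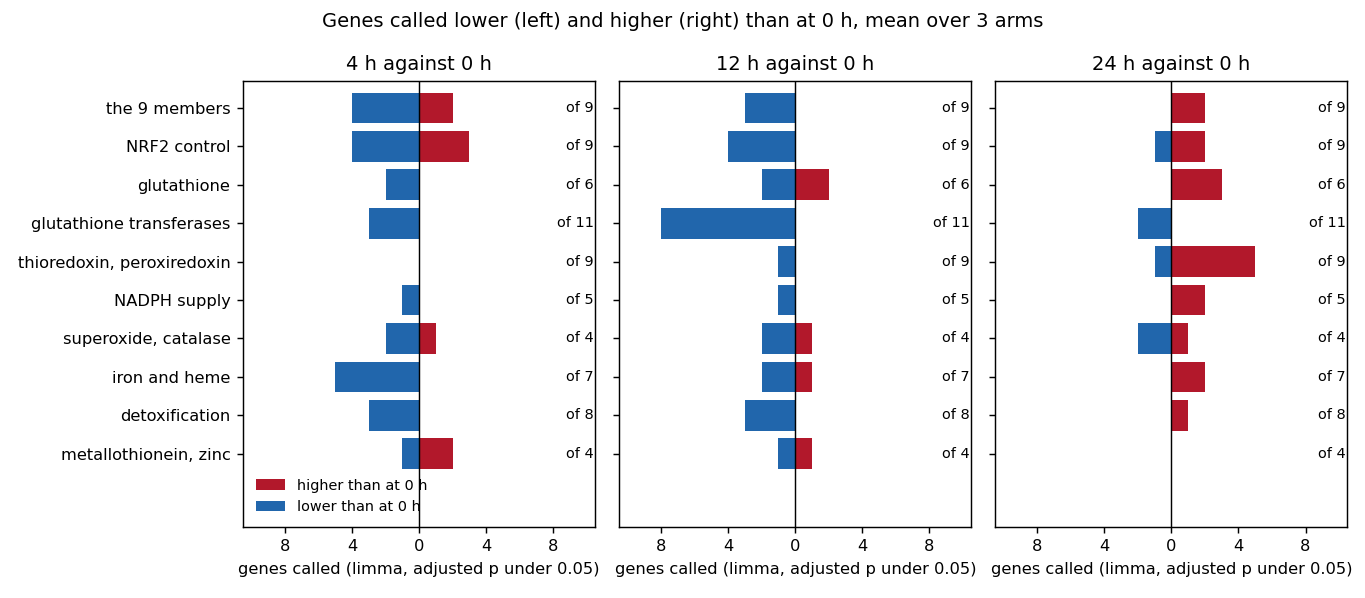
Number of genes called higher (right, red) and lower (left, blue) than at 0 h, averaged over the 3 arms, for the 9 genes and for each of the 9 wider antioxidant lists, with the number tested at the right edge. The glutathione transferases have 8 of 11 genes lower at 12 h (22.5% of all genes), and the iron and heme list has 5 of 7 lower at 4 h (32.4%). Over the 9 lists the 16 higher and 6 lower genes at 24 h become 3 and 11 when columns are rescaled on the median gene.

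The genes whose levels most resembled each member over the 12 columns were found by Pearson correlation of log2(RPKM + 1). These values describe columns that share times and arms and carry no p. KEAP1 was closest to STK38 (r = 0.989), GCLC to FGF1 (0.978), TXNRD1 to PREP (0.973), NFE2L2 to RHBDD3 (0.972), GCLM to NFIX (0.968), HMOX1 to PCSK6 (0.962), NQO1 to ERP29 (0.955), SRXN1 to LOC683626 (0.948) and MT1A to MT2A (0.939). The next for each were XRCC1 and STRN, FERMT2 and ARRDC1, PSMG2 and GNAI3, RGD735065 and LZTS2, PIGN and XK, CD93 and TMEM2, KRT8 and RGD1307554, ADPRHL2 and FBXO30, and CDW92 and STAT3, in the same order of members. Within the set NFE2L2 ran with KEAP1 (0.96), GCLC (0.91) and GCLM (0.81), and GCLC with GCLM (0.89). HMOX1 and MT1A were on the other side of that group, with r of -0.56 and -0.75 to NFE2L2. NQO1 was near none of the other members, its highest r being 0.45 with NFE2L2.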

How the data were processed

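Poly(A) RNA of whole liver was sequenced on an Illumina platform after TruSeq library preparation. The deposited table holds RPKM, which the authors computed and combined over 2 runs per column (RNA of 1 rat, and pooled RNA of 3 rats). The submitters' processing notes name CASAVA, Bowtie 0.12.2 and the builds rn4 and mm8 with no role for each, and no counts per column are given, so depth is unknown. Here, columns were assigned to arm and time by sample title. The 8459 of 14692 listed genes whose mean reached 1 RPKM were set to log2(RPKM + 1) and fitted with limma 3.58.1 (R 4.3.3; trend, moderated) on arm plus time, with Benjamini-Hochberg adjustment. In a simulation of 8459 genes, a small subset was given a BF change of the same size at every time. Of these changes, 42% of log2 size 0.5, 86% of 1, 84% of -1 and 98% of 2 were recovered in BF minus Control. These shares do not apply to genes whose arm difference changes with time, such as GCLC, GCLM, NQO1, HMOX1 and MT1A. The simulated noise was drawn independently for each gene and column, so columns that stand apart were not imitated. The shares may therefore be too high for these data. In the limma fit GSTM1, at -1.08 in BF minus Control, had an adjusted p of 0.051 and was not called. Alternatives were other pseudocounts, filters and scalings, no trend, no block and leave-one-out. The fits without single columns applied to lists were read after seeing the data. All 9 members are described. From each list at most the 4 genes of largest moderated t were named, and for each member the 3 most correlated genes. The members and lists were chosen with earlier results of these data known.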

Additional observations from a re-analysis of the deposited data

Results flagged for a closer look

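In 3 genes an effect pointed in opposite directions in 2 arms or at 2 times, with at least a 2-fold change on log2(RPKM + 1) on each side. Each value rests on single columns, and none of these differences was tested.

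NQO1 lay 1.77 higher at 12 h than at 0 h in Control and 1.10 lower in BA (-1.10), a gap of 2.86. BA minus Control was 2.07 at 0 h, 1.06 at 4 h and -1.69 at 24 h, so the 0 h and 24 h values were 3.76 apart and the 4 h and 24 h values 2.74 apart. BF minus BA was -1.13 at 0 h and 1.15 at 24 h, a difference of -2.28 between the times.

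HMOX1 in BF minus BA was -2.90 at 4 h and 1.75 at 12 h, a difference of -4.65. The 4 h value includes the BA column in which ALB was at 303637.48 RPKM, and the 12 h value the BF column in which acinar markers summed to 153.42 RPKM. Whether either bears on HMOX1 was not tested.

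MT1A was 3.76 higher at 12 h than at 0 h in Control and -2.16 in BF, a gap of 5.93 (5.925), and the same gap separated BF minus Control at 0 h (2.54) from that at 12 h (-3.39). At 24 h the change from 0 h was 2.27 in Control and -1.39 in BF, a gap of 3.65, which is also that between BF minus Control at 0 h and at 24 h (-1.11). All 4 rest on the Control column at 0 h, the lowest MT1A column.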

How the results depend on the processing

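Differences below are on log2(RPKM + 1). Calls of the 9 members did not change under pseudocounts of 0.1 or 0.5 RPKM, a filter of 5 RPKM, no trend or no block. With no filter MT1A at 4 h lost its call (adjusted p = 0.058). Rescaled on the median gene, 1 member instead of 2 was called at 24 h, and 5 uncalled differences changed sign: BF minus Control became 0.11 for KEAP1 and 0.0033 for SRXN1, BA minus Control 0.056 for NFE2L2, and 24 h minus 0 h -0.11 for KEAP1 and -0.042 for MT1A. Rescaled without the 10 most abundant genes, BF minus Control became 0.061 for KEAP1, BA minus Control 0.024 for NFE2L2 and BF minus BA -0.0096 for TXNRD1, while KEAP1 lost its call at 12 h (-0.34) and NFE2L2 gained one at 24 h (0.61).

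Leaving out each column and each time in turn gave 5 to 6 members called at 4 h, 1 to 4 at 12 h (1 without the Control column at 12 h), 1 to 4 at 24 h (4 without that same column) and 0 in all arm contrasts. The following uncalled differences changed sign over these fits, given as lowest to highest. BF minus Control ran from -0.064 to 0.41 for NFE2L2, -0.077 to 0.089 for KEAP1, -0.38 to 0.70 for HMOX1, -0.34 to 0.017 for SRXN1 and -1.52 to 0.45 for MT1A. BA minus Control ran from -0.27 to 0.041 for NFE2L2, -0.47 to 0.78 for NQO1, -0.48 to 0.76 for HMOX1, -0.20 to 0.22 for SRXN1 and -0.47 to 1.00 (0.996) for MT1A. BF minus BA ran from -0.062 to 0.94 for NQO1, -0.13 to 0.32 for GCLC, -0.22 to 0.23 for GCLM, -0.82 to 0.73 for HMOX1 and -0.029 to 0.11 for TXNRD1. NQO1 ran from -0.75 to 0.52 at 4 h and from -0.0053 to 1.27 at 12 h, TXNRD1 from -0.011 to 0.17 at 4 h, and MT1A from -0.21 to 1.84 at 12 h and from -0.75 to 1.28 at 24 h. No called member changed sign. The causes were not tested.

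Over all genes, the 68 called in BF minus Control became 2 with no filter, 44 when rescaled without the 10 most abundant genes and 1 with no block, and the 6 in BA minus Control became 0 with no filter and 1 with no block. Leaving out columns or times gave 0 to 77 and 0 to 28, and at 12 and 24 h the lowest counts were 1245 of 2664 (without the Control column at 12 h) and 1670 of 3056 (without the BF column at 0 h). Of the differences between 2 columns, 354 stayed within a margin of the gene's residual SD and 24 moved, with a pseudocount of 0.1 RPKM or rescaled columns. None changed sign after a 2-fold call. A difference that stayed within the margin could still cross 2-fold. No paired analysis was possible because each arm and time has 1 column, so that groups share a single replicate label. Columns were instead matched by time and by arm through the terms of the fit. With 1 column per cell and depth unknown, an effect of arm at 1 time cannot be told from column noise.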
